A study of Rattus norvegicus with 32 samples.

Results

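The 10 genes described here mark successive steps of the oligodendrocyte lineage, from dividing precursor to maturing oligodendrocyte. They were taken by name from the 28914 gene names of the count tables: Pdgfra and Cspg4 for precursors, Olig1, Olig2 and Sox10 for the whole lineage, Nkx2-2, Gpr17 and Enpp6 for cells that have committed to differentiate, and St18 and Myrf for maturing cells. All 10 passed the filter on low counts in every comparison below.

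The RNA came from adult male Sprague-Dawley rats, which received 4 intraperitoneal injections, 2 h apart, of either METH ((+)-methamphetamine hydrochloride, 10 mg/kg per injection) or saline. Tissue of 4 regions, the nucleus accumbens of the ventral striatum (NAc), the subventricular zone (SVZ) and, in the hippocampus, the dentate gyrus (DG) and Ammon's horn (CA), was dissected the day after the last injection, and 4 libraries per treatment and region were sequenced, 32 in all. These were whole pieces of tissue, so a lower level of a gene can mean fewer cells of the lineage or less RNA per cell, and these cannot be told apart here. The labels do not say which libraries came from 1 rat, and p-values measure the spread between these libraries only.

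Oligodendrocyte precursors divide in response to platelet-derived growth factor, whose alpha receptor is the product of Pdgfra, and carry on their surface the proteoglycan NG2, the product of Cspg4. On commitment they lose both proteins, pass through a short stage marked by Gpr17 and then Enpp6, and switch on the myelin genes under the transcription factors Sox10 and Myrf. Adult grey matter keeps an even population of precursors, whereas mature oligodendrocytes crowd into fibre tracts.

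Some libraries stood apart from their labels. In the headers of the count tables, the libraries labelled DG saline 1 and 2 carry the numbers 20 and 21, which METH 1 and 2 carry in the NAc and CA, and the libraries labelled DG METH 1 and 2 carry 14 and 15, the numbers of saline 1 and 2 in those regions. SVZ METH 1 and 2 share the number 1669, and SVZ METH 3 and 4 share 1670. What a number stands for is not given in the sources used here, so several results that rest on these libraries are also given without them or with them summed. The summed level of 10 striatal neuron genes was 313 CPM (counts scaled to a common library size, with upper-quartile factors) in NAc METH 3 against 1848 to 9662 in the other 7 NAc libraries, and 2180 in DG saline 3 against 237 to 542 in the other 7 DG libraries. The summed level of 9 hippocampal neuron genes was 387 to 1617 CPM in the DG and 637 to 1093 in the CA, overlapping the 191 to 1076 of the NAc. In the SVZ, 8 ependymal genes summed to 22.0 to 412 CPM, and 17 myelin genes to between 4609 in saline 2 and 31692 in METH 4. Library totals ran from 11094002 to 21869773 counted read pairs, so 1 pair was worth 0.0460 to 0.0940 CPM.

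The promoters of Pdgfra, a steady gene of precursors, and Enpp6, the gene with the widest range of the 10, are shown so that motifs of the lineage's own factors can be looked for in them. RefSeq promoter windows of assembly GRCr8, from 250 bases before to 50 bases after the transcription start, matched 6 of the 10 symbols, the others being Olig1, Sox10, Myrf and St18. The Pdgfra window is chr14:33408467-33408766 and the Enpp6 window chr16:52026679-52026978, both on the minus strand and in a newer assembly than that of the counts. Capitals mark matches, on either strand, to CAGCTG, an E-box of the kind that Olig1 and Olig2 proteins can bind, or to ACAAAG or AACAAT, forms of the SOX motif; no match overlapped another.
Pdgfra: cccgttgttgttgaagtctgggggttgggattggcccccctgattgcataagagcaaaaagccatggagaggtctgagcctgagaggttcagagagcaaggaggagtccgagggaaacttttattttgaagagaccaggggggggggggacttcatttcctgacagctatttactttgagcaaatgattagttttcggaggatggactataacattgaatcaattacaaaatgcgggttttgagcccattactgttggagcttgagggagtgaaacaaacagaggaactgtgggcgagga
Enpp6: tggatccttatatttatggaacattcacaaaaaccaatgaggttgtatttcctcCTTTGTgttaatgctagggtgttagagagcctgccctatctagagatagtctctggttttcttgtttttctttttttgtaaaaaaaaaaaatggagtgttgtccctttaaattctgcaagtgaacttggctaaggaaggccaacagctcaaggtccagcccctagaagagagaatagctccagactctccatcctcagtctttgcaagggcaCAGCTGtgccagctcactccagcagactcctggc
Enpp6 held 1 E-box, at base 267 of its window, and 1 match to ACAAAG on the opposite strand, at base 55. The windows of Pdgfra, Cspg4, Olig2, Nkx2-2 and Gpr17 held none of the 3 motifs. Of all 33469 promoter windows, 15.1% held CAGCTG, 18.8% ACAAAG and 11.7% AACAAT, and a match describes letters only.

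Per kilobase of counted exon, the transcription factor gene Olig1 stood highest of the 10, with a median over the 32 libraries of 50.9 CPM per kb. Gpr17, a receptor of the committed precursor, followed at 28.4, and Myrf, the membrane-bound factor that drives myelin genes, at 26.8. Sox10 stood at 19.4, Pdgfra at 15.6 and Olig2 at 14.1 CPM per kb, and Cspg4 at 7.15. St18, a zinc finger factor of maturing cells, stood at 5.21, Enpp6, a choline phosphodiesterase of newly formed oligodendrocytes, at 4.02, and the homeodomain gene Nkx2-2 at 3.89. Ranges over libraries overlapped between all neighbours in this order, and no test between genes was made. The Gpr17 rows rest on a single counted exon of 1020 bases, in rn6 chr18:24734330-24735349 on the minus strand, which lies in an intron of Lims2 on the plus strand; the counting ignored strand, so reads of the Lims2 precursor RNA cannot be told apart there.

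The precursor genes were the steadiest across all libraries. Pdgfra (rn6 chr14:35527927-35581031, minus strand) ran from 69.3 CPM in DG METH 4 to 133 in DG METH 3, a range of 1.92-fold. Cspg4 (chr8:61532465-61567510, plus strand) ran from 46.7 CPM in DG METH 4 to 86.3 in CA METH 4, or 1.85-fold. Gpr17 followed with 2.45-fold, Olig2 with 3.85-fold, Olig1 with 4.11-fold and Nkx2-2 with 4.99-fold. The widest ranges belonged to Sox10 (5.47-fold), Myrf (7.01-fold), St18 (7.06-fold) and Enpp6 (15.5-fold, on counts from 29 upward). For Olig1, Olig2, Myrf, Nkx2-2 and Gpr17 the highest library was SVZ METH 2, and for Sox10 and Enpp6 it was SVZ METH 4, so the top of most ranges lay in the 2 libraries with the most myelin RNA. In rn6, Olig1 (chr11:31428358-31430517) and Olig2 (chr11:31389514-31392890) are neighbours on the plus strand. The others lie on the minus strand: Sox10 at chr7:120393254-120403523, whose span also holds an unnamed gene model of the opposite strand, Nkx2-2 at chr3:141408798-141411170, Myrf at chr1:226260558-226292480, St18 at chr5:12437525-12563429 and Enpp6 at chr16:48315914-48437242.

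**Figure D1:**
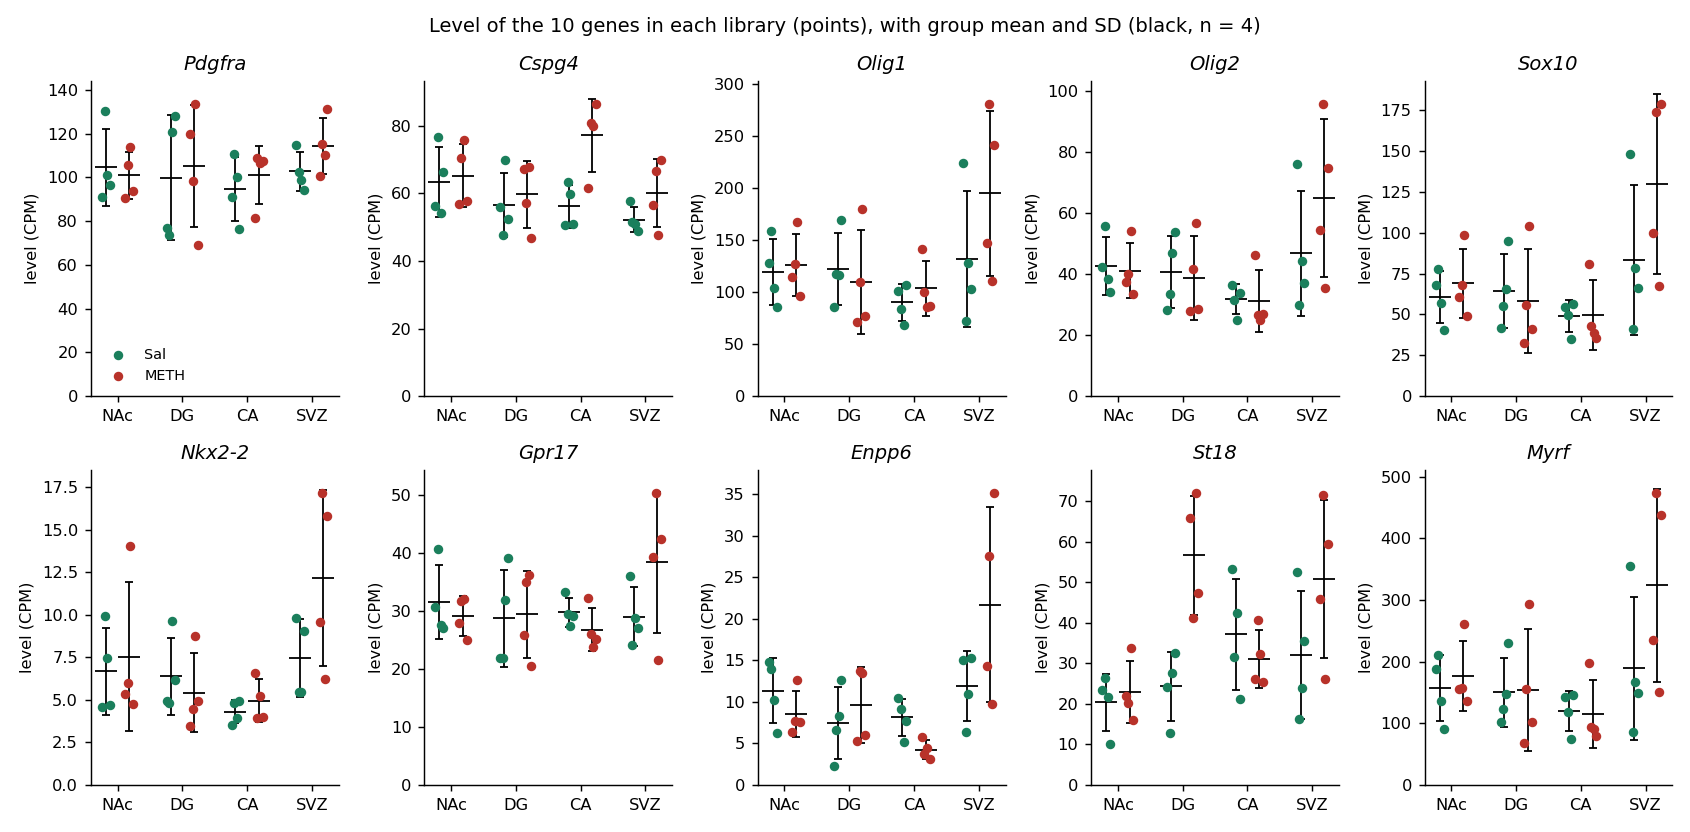
Level of each gene in CPM (y axis, from 0) in the 32 libraries by region (x axis), with saline in green, METH in red and the group mean and SD in black (n = 4). St18 in the DG is the only panel and region where METH points (41.2 to 72.0 CPM) lie clear of saline points (12.8 to 32.6 CPM), and SVZ METH libraries spread widely, as for Myrf at 150 to 473 CPM.

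The first comparison asked how levels differed between the 4 regions of saline rats. Every SVZ library carries a file-name prefix in the table headers that no library of another region carries. A difference between the SVZ and another region therefore cannot be told apart from a difference between prefixes. None of the 10 genes passed a false discovery rate (FDR) of 0.01 in the test of any difference between regions, where 0% of 15515 genes did (quasi-likelihood test of edgeR, p-values adjusted by Benjamini-Hochberg over all genes), although 4137 had an unadjusted p under 0.05 and DESeq2 called 1489. The smallest adjusted p of the 10 was 0.272, for Nkx2-2. Among the pairs of regions, with an added limit of 2-fold, 0 of the 10 were called in each of the 6 pairs. The background was 0% for NAc against DG, NAc against CA, NAc against SVZ and DG against CA, 0.0193% for DG against SVZ and 0.812% for CA against SVZ.

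The members with the smallest p between regions were lowest in the CA or the NAc. At an unadjusted p under 0.05 by edgeR were 2 of the 10 for CA against SVZ, where 4900 of 15515 genes were. For NAc against CA it was 1 of the 10, where 3745 genes were. Genes at that level were common in both pairs, so the values below only describe these members. Nkx2-2, which represses precursor genes at commitment, read 3.52, 4.84, 3.94 and 4.94 CPM in the CA saline libraries and 9.82, 5.47, 5.49 and 9.05 in the SVZ. The log2 difference was -0.79 (CA minus SVZ, SE 0.30, unadjusted p = 0.0199, adjusted p = 0.0915 by edgeR). Sox10, the SOX factor needed for terminal differentiation, read 54.7, 49.5, 34.8 and 56.7 CPM in the CA and 148, 41.0, 78.2 and 66.2 in the SVZ. These overlapped, because SVZ saline 2 was lower than 3 CA libraries, and the log2 difference was -0.77 (SE 0.34, unadjusted p = 0.0417, adjusted p = 0.142 by edgeR). St18 read 23.3, 26.4, 21.6 and 10.2 CPM in the NAc and 53.3, 31.6, 42.4 and 21.2 in the CA. Here the CA was the higher region except for saline 4, with a log2 difference of -0.87 (NAc minus CA, SE 0.40, unadjusted p = 0.0460, adjusted p = 0.198 by edgeR).

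The order of regions therefore rested on wide overlaps for most genes. Pdgfra had region means in saline of 105 ± 17.5 (NAc), 99.9 ± 28.4 (DG), 94.6 ± 14.6 (CA) and 103 ± 8.79 CPM (SVZ; SD, n = 4 each). Cspg4 stood at 63.3 ± 10.3, 56.5 ± 9.47, 56.2 ± 6.39 and 52.2 ± 3.79 CPM in the same order, and Gpr17 at 31.5 ± 6.37, 28.7 ± 8.40, 29.8 ± 2.47 and 29.0 ± 5.05 CPM. Myrf was highest on average in the SVZ, at 189 ± 116 CPM, and lowest in the CA, at 120 ± 32.7. Olig1 had its means between 90.0 ± 17.4 (CA) and 131 ± 65.4 CPM (SVZ), Olig2 between 31.8 ± 4.92 and 46.9 ± 20.5 CPM in the same regions, and Enpp6 between 7.48 ± 4.297 (DG) and 11.9 ± 4.22 CPM (SVZ). For each of these genes the values of all 4 regions overlapped.

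The second comparison asked what METH exposure changed in each region. No gene of the whole table passed an FDR under 0.01 with a fold change above 1.5 by edgeR's quasi-likelihood test, and so none did at the 2-fold limit of the study: 0% of 14771 genes in the NAc, 0% of 14800 in the DG, 0% of 14612 in the CA and 0% of 15579 in the SVZ, and so 0 of the 10 in each. DESeq2 called 3, 183, 10 and 2 genes in these regions at the lower fold limit. The paper, which ran edgeR after removing factors of unwanted variation (RUVr), reports changed genes in every region at the 2-fold limit. In the SVZ it reports enrichment of myelination and oligodendrocyte development among genes higher in METH, and a change of St18. With 2 RUVr factors, edgeR here called 0 genes in each region at the lower fold limit. The cause of this discrepancy was not tested. At an unadjusted p under 0.05, edgeR without RUVr gave 500, 1890, 1046 and 402 genes, and the 10 are read against those shares.

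In the NAc none of the 10 reached an unadjusted p under 0.05, where 2.42% of genes did with a higher level in METH and 0.968% with a lower one. The log2 differences (METH minus saline) ran from -0.38 for Enpp6 (SE 0.30) to 0.20 for Sox10 (SE 0.25), 6 of 10 above 0. Enpp6 read 14.8, 14.0, 10.3 and 6.31 CPM in saline and 6.39, 7.66, 12.7 and 7.62 in METH. The highest METH value was NAc METH 3, the library with few striatal transcripts, which was also the highest of its group for the other 9 genes. Without that library 0 of the 10 differences were above 0, with a range of -0.64 (Enpp6) to -0.03, and without NAc saline 2, 9 were. With the summed myelin level as a covariate, Enpp6 was at -0.36 (SE 0.11, unadjusted p = 0.0158) and Myrf at 0.21 (SE 0.08, unadjusted p = 0.0294), both with an adjusted p of 0.987 by edgeR. For that fit the share of all genes at an unadjusted p under 0.05 was not counted.

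In the DG only St18 reached an unadjusted p under 0.05, 1 of the 10, against 6.35% of genes higher and 6.42% lower in METH. It read 24.2, 12.8, 27.7 and 32.6 CPM in the libraries labelled saline and 65.9, 41.2, 72.0 and 47.4 in those labelled METH. Every METH value lay above every saline value, which held for 1 of the 10 genes in the DG, where the groups did not overlap for 7.39% of all genes tested. The log2 difference was 1.22 (SE 0.30, 95% interval 0.54 to 1.89, unadjusted p = 0.00310), and the adjusted p was 0.194 by edgeR and 0.00572 by DESeq2, so of these 2 tools DESeq2 alone called St18.

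The St18 difference was recomputed without the doubtful libraries and with the file-name prefix as a covariate. Without DG libraries 1 and 2 of both treatments, whose numbers go against their labels, it was 0.98 (SE 0.27, unadjusted p = 0.0208, adjusted p = 0.731 by edgeR). The file names in the table headers divide the DG libraries into 3 prefixes that nearly follow treatment, and only saline 3 shares one with METH libraries (1 and 2). With the prefix as a covariate, the difference was 0.94 (SE 0.59, unadjusted p = 0.154). Other cell types moved beside it: 10 neuroblast genes summed to 472 to 550 CPM in saline and 329 to 414 in METH, 10 astrocyte genes to 3136 to 3965 and 4327 to 4615, and 9 of 10 hippocampal neuron genes, Fibcd1 being at 0 in all DG libraries, to 387 to 761 and 493 to 1617. Striatal neuron genes, all 10 of them lower in METH, summed to 325 to 2180 and 237 to 542 CPM. Their part in the St18 difference was not tested.

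The other 9 genes in the DG lay between -0.24 (Nkx2-2, SE 0.34) and 0.36 (Enpp6, SE 0.52), and their intervals all held 0. Of the 10 differences in the DG, 6 were above 0. Without DG libraries 1 and 2 of both treatments 2 were, with a range of -0.33 to 0.98 and a median of -0.15. Myrf is an example of how wide the libraries spread there, at 102, 123, 147 and 230 CPM in saline and 67.6, 155, 293 and 102 in METH. The METH group held both the lowest and the highest of the 8. With the header prefix as a covariate, Nkx2-2 was at -1.29 (SE 0.40, unadjusted p = 0.0154), an estimate that rests on saline 3 against METH 1 and 2.

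In the CA, Cspg4 and Enpp6 reached an unadjusted p under 0.05, 1 of the 10 higher in METH, where 4.37% of genes were, and 1 lower, where 2.79% were. Cspg4 read 50.7, 63.4, 59.8 and 51.0 CPM in saline and 61.7, 80.7, 79.9 and 86.3 in METH. Only CA METH 1 lay within the range of the saline values. The log2 difference was 0.45 (SE 0.12, 95% interval 0.18 to 0.73, unadjusted p = 0.00448, adjusted p = 0.669 by edgeR). With the header prefix as a covariate it was 0.48 (SE 0.14, unadjusted p = 0.0111 by edgeR). CA saline 1 and 2 carry a prefix that no CA METH library carries. That estimate therefore rests on saline 3 against METH 3 and 4 and on saline 4 against METH 1 and 2.

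Pericytes also make NG2, and vascular genes were higher in the same libraries. Of 11 pericyte and fibroblast genes tested, 10 had a positive difference and 1 an unadjusted p under 0.05; the list summed to 90.0 to 135 CPM in saline and 103 to 166 in METH, with Col1a2 at 0 in all CA libraries. The 7 endothelial genes tested were all above 0, 3 with an unadjusted p under 0.05, and summed to 115 to 161 and 153 to 184 CPM, with Cldn5 at 0. Over all 32 libraries, deviations of Cspg4 from its group means were also set against those of these sums. Pearson r was -0.03 for the pericyte and fibroblast genes and 0.06 for the endothelial genes. The part of these genes in the Cspg4 difference was not tested. Pdgfra, the other precursor gene, was at 0.09 (SE 0.13).

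Enpp6 read 10.5, 9.13, 5.22 and 7.74 CPM in CA saline and 5.77, 3.71, 4.40 and 3.12 in CA METH. Only METH 1 lay above the lowest saline library. The log2 difference was -0.94 (SE 0.26, 95% interval -1.52 to -0.37, unadjusted p = 0.00494, adjusted p = 0.669 by edgeR). With the header prefix as a covariate it was -0.59 (SE 0.23, unadjusted p = 0.0394 by edgeR), where saline 3 and 4 were again the only saline libraries that counted. Summed myelin RNA was 3590 to 7726 CPM in saline and 2770 to 9596 in METH, with medians of 6590 and 3395. The 9596 was CA METH 1. Of the 17 myelin genes, 1 was above 0 in METH, with a median log2 difference of -0.29 and 0 at an unadjusted p under 0.05. Of the 13 further genes of committed cells tested, 1 was above 0. With the myelin sum as a covariate, Enpp6 was at -0.69 (SE 0.18, unadjusted p = 0.00534 by edgeR). In that fit Olig1 (0.40, SE 0.10), Cspg4 (0.32, SE 0.08), Sox10 (0.27, SE 0.10) and Myrf (0.26, SE 0.09) were higher with an unadjusted p under 0.05, at an adjusted p of 0.793 each by edgeR. The share of all genes at an unadjusted p under 0.05 was not counted in that fit. No gene of the 10 had METH and saline groups apart in the CA, against 4.43% of all genes.

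In the SVZ all 10 genes were higher on average in METH, and none reached an unadjusted p under 0.05, where 1.19% of genes did upward and 1.39% downward. The log2 differences ran from 0.16 for Pdgfra (SE 0.11) to 0.87 for Enpp6 (SE 0.44), with a median of 0.61 against 0.016 over all genes. Myrf read 354, 86.2, 166 and 149 CPM in saline and 235, 473, 150 and 438 in METH. METH 2 and METH 4 were the highest, saline 1 came next, and the groups overlapped. Enpp6 read 15.1, 6.37, 10.98 and 15.3 CPM in saline and 14.4, 27.6, 9.75 and 35.2 in METH. Again METH 2 and 4 stood above the rest and METH 1 and 3 lay among the saline libraries. Groups were apart for 0 of the 10 in the SVZ, against 1.61% of genes, and for 0 of the 10 in the NAc, against 2.26%.

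Myelin genes moved with the SVZ libraries in the same way. All 17 were above 0 in METH, with a median log2 difference of 0.81 and 1 with an unadjusted p under 0.05, and they summed to 21994, 4609, 10701 and 8801 CPM in saline and 11271, 29986, 10245 and 31692 in METH. With that sum as a covariate, the 10 genes lay between -0.05 (Olig2) and 0.19 (Nkx2-2), 8 above 0. Striatal neuron genes were below 0 for 10 of 10, and the 8 ependymal genes summed to 22.0 and 25.8 CPM in METH 2 and 4 but 214 and 228 in METH 1 and 3. Without SVZ saline 1, 5 of the 10 (Olig1, Olig2, Sox10, Myrf and St18) had an unadjusted p under 0.05 and the differences ran from 0.21 to 1.27, with a smallest adjusted p of 0.270 by edgeR. Their median was then 0.91, and it was 0.81 without METH 3, 0.39 without saline 2, 0.40 without METH 2 and 0.45 without METH 4, with all 10 above 0 each time. With 2 factors of unwanted variation removed (RUVr), a step the study's methods describe, 8 of the 10 had an unadjusted p under 0.05 by edgeR. These were all but Pdgfra and Enpp6, with a smallest adjusted p of 0.139. The share of all genes at that level was not counted with RUVr or without SVZ saline 1, so these counts have no background. With the METH libraries that share a number summed into 1, Enpp6 (0.85, SE 0.34, unadjusted p = 0.0477) was the 1 gene of the 10 below 0.05.

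**Figure D2:**
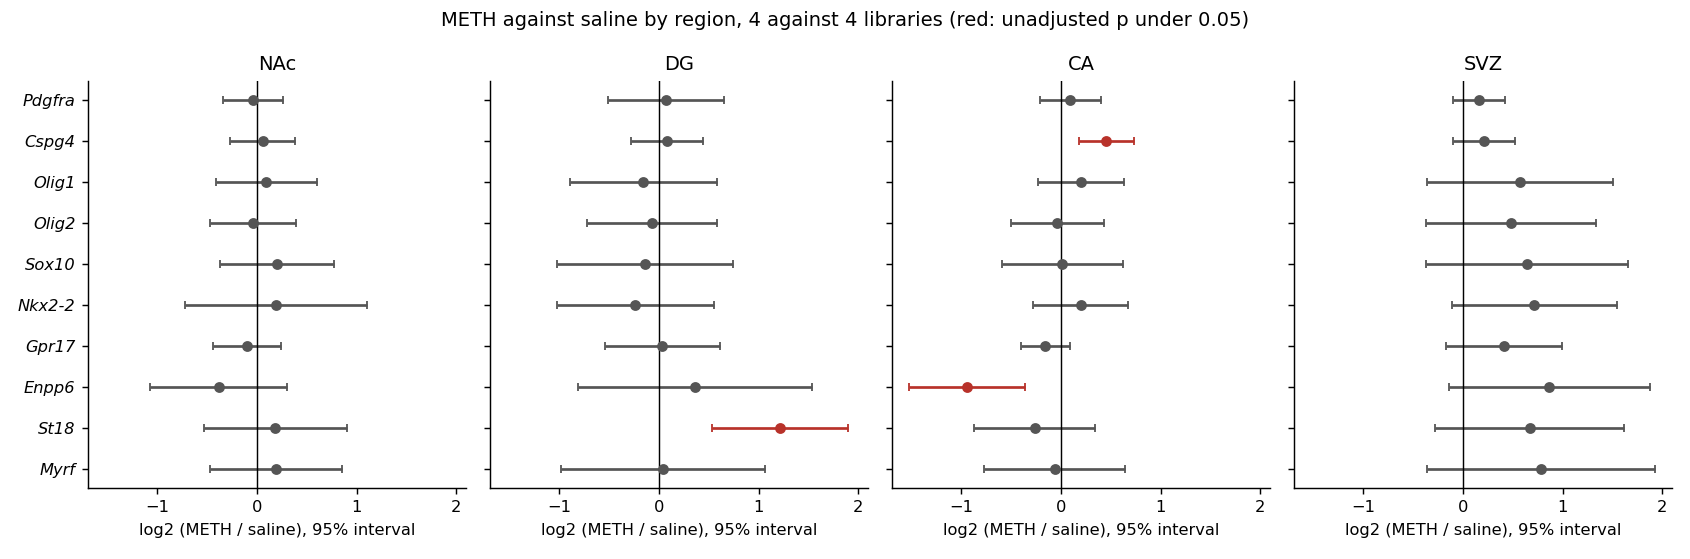
Log2 difference of METH against saline (x axis) with its 95% interval for each gene (y axis) in the NAc, DG, CA and SVZ, from 4 against 4 libraries per region; red marks an unadjusted p under 0.05. Red points are St18 in the DG (1.22), Cspg4 in the CA (0.45) and Enpp6 in the CA (-0.94), and all 10 SVZ points lie to the right of 0 with intervals that reach 0.

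Averaged over the 4 regions in a fit of all 32 libraries, 0 of the 10 passed these limits, as did 0% of 16122 genes. St18 had a mean log2 difference of 0.45 (SE 0.18, unadjusted p = 0.02003, adjusted p = 0.567 by edgeR) and Cspg4 of 0.20 (SE 0.07, unadjusted p = 0.0131, adjusted p = 0.552). These were 2 of the 10 higher in METH at an unadjusted p under 0.05, where 4.29% of genes were, and 0 were lower, where 3.54% were. Without DG libraries 1 and 2 the values were 0.39 for St18 (unadjusted p = 0.0655) and 0.15 for Cspg4 (unadjusted p = 0.0941). The other 8 lay between -0.03 (Enpp6, SE 0.21) and 0.23 (Myrf, SE 0.22).

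Whether the METH difference itself varied between regions was tested with 3 contrasts in the same fit. None of the 10 passed the FDR limit, and neither did any gene (0%), while DESeq2 called 26. At an unadjusted p under 0.05 were 2 of the 10, against 7.74% of genes. Enpp6 had log2 differences of -0.38, 0.36, -0.94 and 0.87 in the NAc, DG, CA and SVZ (unadjusted p = 0.0322, adjusted p = 0.599 by edgeR). St18 had 0.19, 1.22, -0.26 and 0.67 in the same order (unadjusted p = 0.0451, adjusted p = 0.627 by edgeR). Neither stayed under 0.05 with the header prefix or the RNA integrity number as a covariate.

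The third comparison asked how each gene varied among libraries of the same group with the amount of myelin RNA. The summed CPM of 17 myelin genes, none of them among the 10, entered a fit of all 32 libraries beside the 8 group means, and the slope is the log2 change of a gene per doubling of that sum. Of the 10 genes, 7 rose with it at an FDR under 0.01, where 5.61% of 16122 genes did, and 0 fell, where 2.85% did (quasi-likelihood test of edgeR). The median slope was 0.51 for the 10 and -0.0028 over all genes.

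Myrf followed myelin most steeply, at 0.81 (SE 0.04, adjusted p = 6.53e-15), and then Enpp6 at 0.75 (SE 0.08, adjusted p = 8.82e-08) and Sox10 at 0.70 (SE 0.04, adjusted p = 5.85e-14). Olig1, at 0.58 (SE 0.04, adjusted p = 4.76e-11), and Olig2, at 0.52 (SE 0.04, adjusted p = 5.01e-10), followed. Slopes below 1 mean that these genes doubled less than myelin RNA did. Nkx2-2 rose by 0.49 per doubling (SE 0.10, adjusted p = 0.000716) and Gpr17 by 0.31 (SE 0.05, adjusted p = 0.000124). Lims2, whose intron holds the counted Gpr17 exon, rose by 0.30 (SE 0.06, adjusted p = 0.00216 by edgeR). The part of Lims2 reads in the Gpr17 slope was not tested. St18, at 0.35 (SE 0.12, adjusted p = 0.0423), missed the limit. The precursor genes had slopes of 0.10 for Pdgfra (SE 0.06, adjusted p = 0.298) and 0.04 for Cspg4 (SE 0.05, adjusted p = 0.664), with 95% intervals of -0.03 to 0.23 and -0.07 to 0.15.

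**Figure D3:**
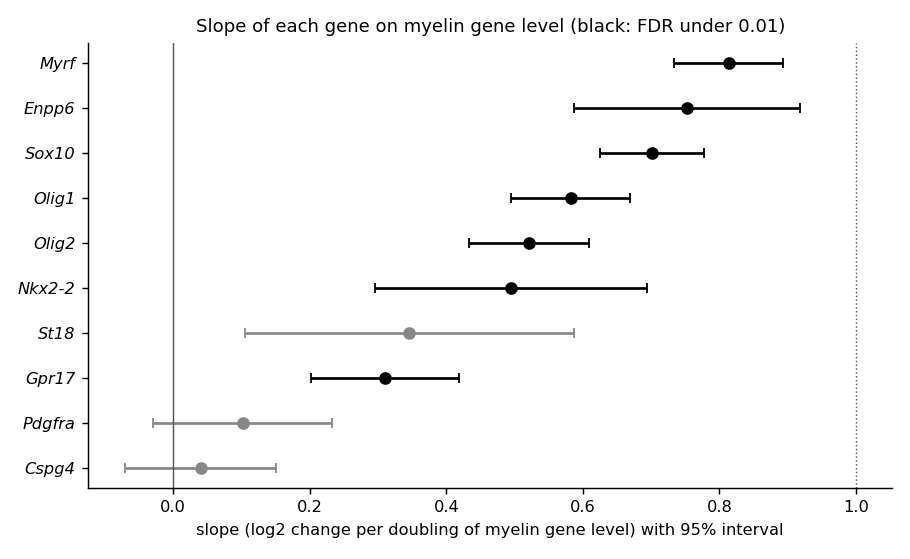
Slope of each gene on myelin gene level (x axis, log2 change per doubling, with 95% interval; genes on the y axis) over 32 libraries with group means removed; black marks an FDR under 0.01, the solid line 0 and the dotted line 1. Cspg4 (0.04) and Pdgfra (0.10) lie at the bottom and Myrf (0.81) at the top.

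The split between precursor and later genes can be read from single libraries. CA METH 4, the lowest of all in myelin RNA at 2770 CPM, held 108 CPM of Pdgfra, 25.1 of Gpr17, 3.12 of Enpp6 and 79.3 of Myrf. SVZ METH 4, the highest at 31692 CPM, held 131 CPM of Pdgfra, 42.5 of Gpr17, 35.2 of Enpp6 and 438 of Myrf. Between these libraries Pdgfra differed little and Enpp6 by more than any other gene of the 10 that is named here. The slopes of the 7 genes were positive in each region alone, where 8 libraries allowed fewer calls (1 of the 10 in the NAc, 3 in the DG, 2 in the CA and 3 in the SVZ). Those of Pdgfra and Cspg4 turned negative in the CA alone, at -0.24 (SE 0.09, unadjusted p = 0.0243) and -0.25 (SE 0.07, unadjusted p = 0.00502), as did that of St18 at -0.16 (SE 0.23). Without the SVZ, 6 of the 10 passed, Nkx2-2 being lost, and in the 16 saline libraries 5 did, Nkx2-2 and Gpr17 being lost.

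**Figure D4:**
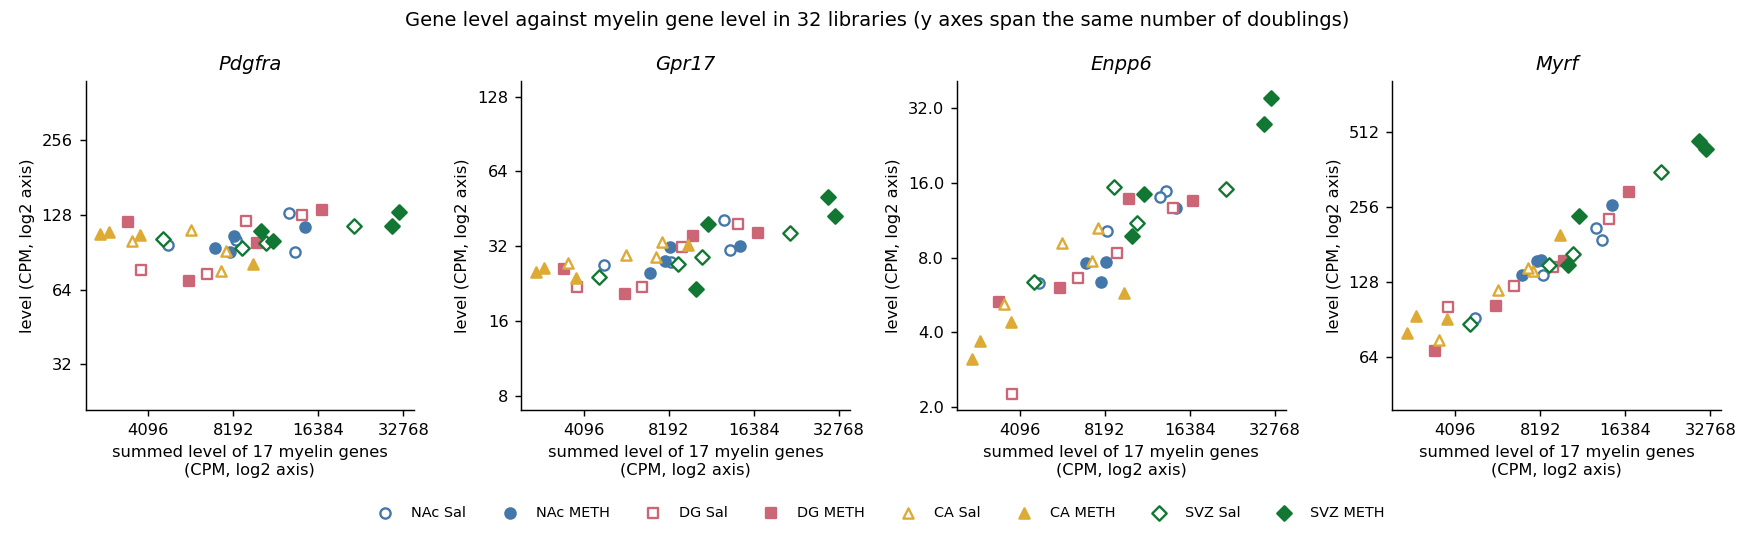
Level of Pdgfra, Gpr17, Enpp6 and Myrf (y axes, CPM on log2 axes of equal span) against the summed level of 17 myelin genes (x axis, CPM, log2) in 32 libraries, with regions by colour and shape and METH filled. Myrf runs from 67.6 to 473 CPM, Gpr17 from 20.5 to 50.4, and Pdgfra from 69.3 to 133.

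Deviations from the group means held 2 closely tied sets of genes, with Nkx2-2, Gpr17 and St18 outside both. Over the 32 libraries, Olig1, Olig2, Sox10 and Myrf had pairwise Pearson r of 0.96 to 0.99, and Enpp6 had 0.82 to 0.85 with them. Pdgfra and Cspg4 had r = 0.76 with each other and 0.20 to 0.40 with those 4 genes. Gpr17 lay between, at 0.54 with Pdgfra and 0.90 with Olig2, and St18 had 0.46 to 0.62 with all the others. Nkx2-2 had 0.71 to 0.76 with Olig1, Olig2, Sox10 and Myrf, 0.40 with Pdgfra and 0.495 with Cspg4. These values share libraries, depth and tissue composition and are given as a description.

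**Figure D5:**
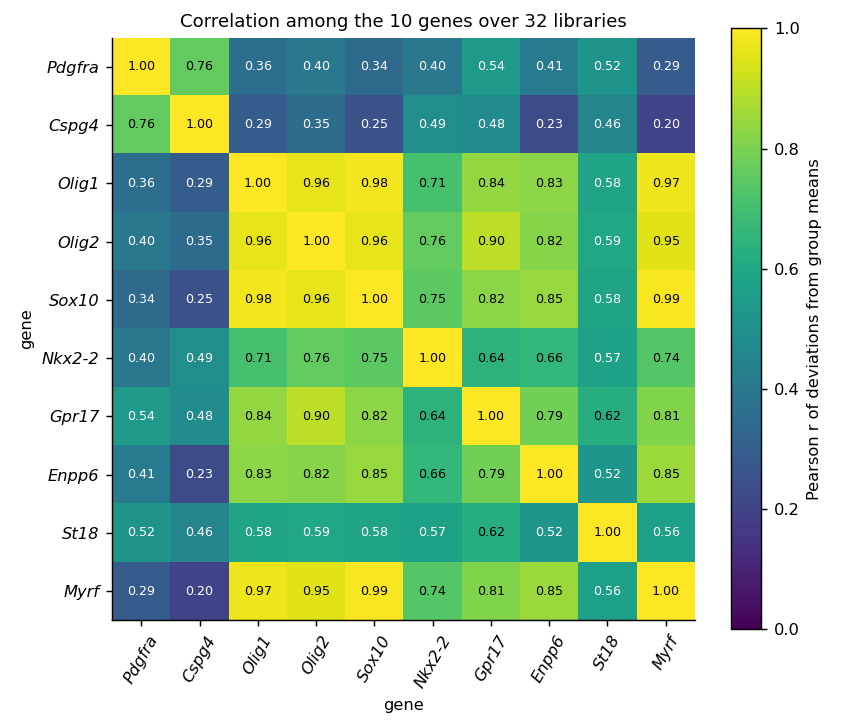
Pearson r between the genes (both axes) of the deviations of log2(CPM + 1) from the group means over 32 libraries, on a colour scale from 0 to 1. The block of Olig1, Olig2, Sox10 and Myrf reads 0.96 to 0.99, and Pdgfra with Cspg4 reads 0.76.

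By the same measure, the 11570 genes with a mean of at least 5 CPM were ranked for likeness to each of the 10. Pdgfra was nearest to Igsf1 (r = 0.86), Ctdsp1 and Abca1, and Cspg4 to Sspn (0.83), Heyl and Pea15. Sox10 and Myrf were nearest to each other (0.99), Olig1 to Sox10 (0.98) and Olig2 to Sirt2 (0.97), a deacetylase of the myelin sheath. Myrf came next to Mog (0.99), which encodes a myelin surface protein, and Enpp6 was nearest to Aspa (0.92), the aspartoacylase of oligodendrocytes. Gpr17 was nearest to Sema4d (0.91), St18 to Anln (0.86) and Nkx2-2 to Uba6 (0.89). The summed astrocyte genes had r between -0.23 and 0.24 with the 10, and the summed microglia genes 0.56 with Pdgfra and 0.68 with Cspg4.

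Further genes of the lineage had slopes on myelin on both sides of 0. Of 18 further genes tested from a list for precursors, 12 had a slope above 0 (median 0.07). At an FDR under 0.01, 4 rose with myelin and 0 fell. Among the 4 were Gal3st1 (0.74), Lims2 (0.30) and Vcan (0.28), a proteoglycan of the extracellular matrix. Which cells made their RNA was not tested. Of 13 further genes of committed cells, which also count Lims2, 8 rose, with Bcas1 at 0.99, Cnksr3 at 0.66 and Sirt2 at 0.42. Of 20 regulators of the lineage, 11 had a slope above 0 (median 0.07) and 5 rose, led by Nkx6-2 (0.91), Erbb3 (0.84), the neuregulin receptor, and Zfp488 (0.70). Among markers of other cells, 1 of 11 pericyte and fibroblast genes rose, 0 of 10 astrocyte, 0 of 10 microglia and 0 of 7 endothelial genes passed, and 1 neuronal and 1 neuroblast gene, of 10 each, fell.

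For METH against saline these lists held 0 genes past the FDR limit in every region. In the CA, 4 of the 18 precursor genes had an unadjusted p under 0.05, all with a higher level in METH, among them Mmp15 (0.31), Sox6 (0.34) and Cspg5 (0.23), against 4.37% of all genes. So did 8 of the 20 regulators, led by Id4 (0.60), Pdgfb (0.45) and Pdgfc (0.53), the last 2 being ligands of PDGF receptors. In the DG, 2 precursor genes were higher, Tnr (0.34) and Bcan (0.28), and 2 lower, Pcdh15 (-0.60) among them, against 6.35% and 6.42% of all genes. Of the regulators there, Zeb2 (0.85) and Zfp536 (0.45) were higher and Nrg1 (-0.79), a ligand of Erbb receptors, lower at that level. The further genes of committed cells had 1 at that level in the DG, Fyn (0.22), and 1 in the CA, Itpr2 (0.27). In the SVZ none of the 18, 13 or 20 reached it, against 1.19% of genes upward and 1.39% downward. In the NAc 1 precursor gene, Ptprz1 (0.33), and 1 regulator, Zfp536 (0.37), did, against 2.42% of genes upward. All had an adjusted p above 0.25 by edgeR.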

How the data were processed

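Per the labels and the study's methods, reads of rRNA-depleted total RNA were trimmed with cutadapt 2.7 and checked with FastQC 0.11.4. They were aligned to rn6 with STAR 2.5.2b and counted per gene with featureCounts, without strand. For the counting, the methods name a UCSC annotation of the rat, whereas the headers of the count tables name featureCounts 1.6.3 and Ensembl release 95. The deposited values are raw counts, 1 table per library, and tables were not otherwise normalized. Here counts were scaled by upper-quartile factors, filtered with edgeR's filterByExpr and tested with edgeR 4.0.16 (glmQLFit, glmQLFTest) in R 4.3.3, with Benjamini-Hochberg adjustment over all genes tested. CPM is counts scaled to a common library size with those factors, after the filter over all 32 libraries. A fit per region compared METH with saline, and fits of all 32 libraries gave the mean METH difference, its variation between regions and the slope on myelin RNA. METH calls used an FDR of 0.01 and a 1.5-fold limit, lower than the 2-fold limit of the study. Alternatives included DESeq2 1.42.0 and limma 3.58.1. RNA integrity numbers served as a covariate only. The 10 genes and all gene lists were chosen with earlier results of these data known. All 10 genes are named, and of other lists up to 3 genes with the smallest p per comparison. Scripts were tested on simulated data. Same-group libraries differed beyond sampling noise (chi-square per gene 16.42 to 191.4), so none was counted as a duplicate. The lowest value was that of SVZ METH 2 with METH 4, which carry different header numbers. SVZ METH 1 with 2 and METH 3 with 4, which share a number, gave 133.4 and 114.7.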

Additional observations from a re-analysis of the deposited data

Results flagged for a closer look

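In a group of 4 libraries, chance alone sets 1 library far from the other 3 about 1 time in 20. Combinations of gene and group are not separate draws here, because deviations of Olig2, Sox10 and Myrf had r of 0.955 to 0.989. The count of flags is therefore given as a description only. Flagged were 6 of the 80 combinations. CA METH 1 accounted for 4 of them: Myrf at 198 CPM against 79.3 to 93.1 in the others, Sox10 at 81.2 against 35.7 to 42.7, Olig2 at 46.2 against 24.9 to 27.0, and, in the other direction, Pdgfra at 81.4 against 107 to 109 CPM. That library held 9596 CPM of myelin RNA and the other CA METH libraries 2770 to 3829. NAc METH 3 accounted for the other 2: Myrf at 261 CPM against 136 to 157 and Nkx2-2 at 14.1 against 4.75 to 6.02, beside 14662 CPM of myelin RNA against 7033 to 8251. The METH difference of 2 genes varied between regions at an unadjusted p under 0.05 by edgeR's test of that variation, Enpp6 at 0.0322 and St18 at 0.0451, and neither passed the adjustment.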

How the results depend on the processing

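With DESeq2, METH called 3 genes of the whole table in the NAc, 183 in the DG (St18 among them), 10 in the CA, 2 in the SVZ, 1 for the mean difference and 26 for its variation between regions, where RUVr gave 76. An FDR of 0.05 gave 1 in the DG. Of the 10 genes, those at an unadjusted p under 0.05 numbered 2 in the NAc with RUVr and 2 with the myelin covariate, 5 in the CA with the myelin covariate, and in the SVZ 8 with RUVr and 1 with METH libraries of a shared number summed. For variation between regions (2 of the 10) they were 0 with the replicate block, the RNA integrity number or the header prefix, 4 with the myelin covariate and 1 without DG libraries 1 and 2, which left 0 for the mean difference. The share of all genes at an unadjusted p under 0.05 was not counted in these alternative fits.

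Between saline regions, DESeq2 called 1489 genes over all regions, 11 for NAc against DG, 529 for NAc against CA, 44 for NAc against SVZ, 117 for DG against SVZ and 766 for CA against SVZ. Without DG libraries 1 and 2 these were 177 over all regions, 13 for NAc against CA, 0 for DG against SVZ and 256 for CA against SVZ, and 3 of the 10 genes were at p under 0.05 for DG against CA. DG against SVZ gave 0 with TMM, no filter or the replicate block, and CA against SVZ 44 with no filter and 0 with the replicate block. Of the 10, CA against SVZ held 1 with TMM and 1 with the replicate block, NAc against CA 0 with the replicate block, and NAc against SVZ 1 with no filter and 1 with DESeq2.

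The slope on myelin called 299 genes in saline alone, 565 without the SVZ, and 19, 101, 65 and 217 in the NAc, DG, CA and SVZ alone, with 1, 3, 2 and 3 of the 10. Slopes turned negative for Cspg4 without the SVZ (-0.0225), and in the CA alone for Pdgfra (-0.24), Cspg4 (-0.25) and St18 (-0.16). The 7 calls were kept with TMM, no filter, the replicate block, the header prefix, and without DG libraries 1 and 2 or any 1 library.

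Leaving out 1 library at a time gave 862 (without SVZ saline 1) to 1498 genes for the slope, 0 to 1 for variation between regions with 0 to 3 of the 10, 2 to 3 of the 10 in the CA (3 without METH 1) and 0 to 5 in the SVZ (5 without saline 1). Between saline regions the whole-table calls ran from 0 to 463 over all regions, 0 to 36 for NAc against DG, 0 to 209 for NAc against CA, 0 to 70 for DG against SVZ and 0 to 387 for CA against SVZ, the highest always without DG saline 3. Of the 10, these gave 0 to 1 over all regions, 0 to 1 for NAc against DG, NAc against CA, NAc against SVZ and DG against SVZ, and 0 to 5 for CA against SVZ (5 without SVZ saline 2).

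METH and saline libraries of 1 region that share a replicate number had correlations of their deviations from -0.79 to 0.45, so these numbers were not taken to pair libraries. With the replicate block St18 in the DG was at 1.26 (adjusted p = 0.119 by edgeR). The numbers in the table headers repeat across the NAc, DG and CA and may mark 1 rat: the 24 pairs that share one had a median correlation of 0.045 and the 168 that do not -0.024. With that number as a random block in limma voom the fits over regions gave 0 of the 10 for variation between regions, 1 for CA against SVZ, 1 gene of the table over all regions and 0 for DG against SVZ, and the 7 slope calls and both genes of the mean difference were kept. Limma voom without the block gave 0, 1, 0 and 0, and 0 of the 10 for NAc against CA. The fits without DG libraries 1 and 2, with summed SVZ libraries, in saline alone, without the SVZ and in single regions, those with limma voom, and the header prefix for the slope, were chosen after seeing the data. The causes of these changes were not tested. With 4 libraries per group and 29 counts of Enpp6 in its lowest library, small differences may have been missed. The stated intervals give the uncertainty of each estimate, and no limit of detection was computed.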
